A study of Homo sapiens with 6 samples.

Results

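The S100 calcium binding proteins studied here were 10 genes, S100A2, S100A3, S100A4, S100A6, S100A10, S100A11, S100A13, S100A14, S100A16 and S100P, taken by gene symbol from a table of 27685 genes. All 10 symbols were found, and all 10 genes passed the filter on low counts. The table came from RNA sequencing of Caco-2 cells, an established human colorectal cancer line used as a model of the absorptive epithelium of the gut. The FABP1 antisense group (3 libraries) carried hFABP1as, directed against the fatty acid binding protein gene FABP1, and is labelled as a knockdown. The vector control group (3 libraries) was mock-transfected with pcDNA3 and is labelled wild type. Both groups derive from Caco-2, and the labels give them the same culture medium. The labels do not say whether a group came from 1 clone or several, so an effect of the construct and a difference between transfected lines cannot be told apart. Separate cultures within a group are not stated either, so each p-value reflects the spread among these libraries alone, and that spread may be technical.

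S100 proteins are small acidic proteins that pair into dimers, each chain holding EF-hand loops that bind calcium. Calcium binding, where it occurs, opens a surface that grips a target protein, so that the dimer acts as a calcium-dependent adaptor inside the cell. Some are also released and act on receptors such as RAGE. In colorectal epithelium several members have been followed as markers of tumour spread, S100A4 and S100P among them. Most of the family lies in 1 cluster on the long arm of chromosome 1, within a region that also holds the epidermal differentiation genes. By RefSeq, 9 of the 10 members lay on chromosome 1, with S100A10 and S100A11 somewhat apart from the rest, and S100P lay on chromosome 4.

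The promoters of 5 members are shown because they frame the contrast of the results: S100A6, S100A4 and S100P had the largest rises, while S100A3, next to S100A4 in the cluster, and S100A10, the most abundant member per transcript length in the vector control, did not pass the test. Each line runs 5′ to 3′ over 300 bases, 250 before the RefSeq start and 50 after it, in build GRCh38.p14. The regions are chr1:153535942-153536241, chr1:153545757-153546056, chr1:153549209-153549508 and chr1:151993810-151994109, all on the minus strand, and chr4:6693628-6693927 on the plus strand. Capitals mark matches to 4 motifs searched on both strands: a TATA box (TATAAA), an AP-1 site (TGANTCA), a GC box (GGGCGG) and a CDX core (TTTAT), whose reverse complement lies within TATAAA.
S100A6: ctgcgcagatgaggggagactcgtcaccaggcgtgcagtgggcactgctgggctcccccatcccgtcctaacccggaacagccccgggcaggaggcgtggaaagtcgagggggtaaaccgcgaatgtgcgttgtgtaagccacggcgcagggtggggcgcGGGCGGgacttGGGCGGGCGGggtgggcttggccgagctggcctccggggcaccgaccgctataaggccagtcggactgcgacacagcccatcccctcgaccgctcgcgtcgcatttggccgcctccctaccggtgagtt
S100A4: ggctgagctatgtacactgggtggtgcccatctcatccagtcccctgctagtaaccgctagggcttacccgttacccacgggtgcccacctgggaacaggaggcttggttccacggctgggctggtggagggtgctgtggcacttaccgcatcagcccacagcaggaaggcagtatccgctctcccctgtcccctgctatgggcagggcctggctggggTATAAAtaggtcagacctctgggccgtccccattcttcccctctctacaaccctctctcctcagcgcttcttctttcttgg
S100A3: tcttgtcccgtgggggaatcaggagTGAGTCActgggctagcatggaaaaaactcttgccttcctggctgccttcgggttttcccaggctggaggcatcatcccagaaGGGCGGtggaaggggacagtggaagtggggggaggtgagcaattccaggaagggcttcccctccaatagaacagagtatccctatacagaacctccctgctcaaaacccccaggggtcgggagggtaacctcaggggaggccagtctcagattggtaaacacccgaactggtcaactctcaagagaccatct
S100A10: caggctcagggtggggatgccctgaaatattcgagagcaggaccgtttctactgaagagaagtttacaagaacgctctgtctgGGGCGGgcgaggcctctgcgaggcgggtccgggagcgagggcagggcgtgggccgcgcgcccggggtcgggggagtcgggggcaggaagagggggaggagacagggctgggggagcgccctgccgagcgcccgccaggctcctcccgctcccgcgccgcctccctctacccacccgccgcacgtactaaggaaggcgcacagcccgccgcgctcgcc
S100P: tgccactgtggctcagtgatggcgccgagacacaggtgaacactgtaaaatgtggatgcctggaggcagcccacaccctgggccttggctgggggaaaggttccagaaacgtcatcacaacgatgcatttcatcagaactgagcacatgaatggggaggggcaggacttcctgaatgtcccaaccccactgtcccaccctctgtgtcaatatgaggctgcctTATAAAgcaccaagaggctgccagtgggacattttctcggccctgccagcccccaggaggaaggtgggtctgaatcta

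S100A4 and S100P each held TATAAA close to the start, at -31 and -28 bases from it. S100A6 held 3 GC boxes, at -90, -79 and -75, the last 2 overlapping. S100A3 held an AP-1 match at -225 and a GC box at -142, and S100A10 held a single GC box at -167. All 10 members matched the promoter table, with 14 promoters in all. TATAAA was found in 3 of the 14, against 11.5% of 35116 promoters of the same length, and TGANTCA in 2 of the 14, against 7.71%. Besides S100A4 and S100P, TATAAA was found in S100A13, at -29 in 1 of its 3 promoters. Besides S100A3, TGANTCA was found in S100A2, at -52 in 1 of its 2 promoters. GGGCGG was found in 6 of the 14 (45.0% of all promoters) and TTTAT in 6 (34.9% of all). These matches describe the letters of the windows and were not set against the fold changes by any test.

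Counts per library ran from 40351394 to 57979037. Levels are given as CPM, counts scaled to library size. FABP1 was 134, 147 and 122 CPM in the FABP1 antisense libraries against 138, 102 and 121 CPM in the vector control libraries. The groups overlapped for FABP1, and its difference was short of the threshold (log2 fold change 0.16, SE 0.12, adjusted p = 0.268 by edgeR). Whether reads were counted by strand is not stated, so these counts could include reads of the antisense construct. The level of the cells' own FABP1 transcript was not tested apart from it. The group is therefore named by its label, and rises and falls are those of the libraries labelled FABP1 antisense. The cells carried epithelial markers in both groups. The summed level of 10 intestinal epithelial markers was 16500 to 19400 CPM in the FABP1 antisense libraries. In the vector control libraries it was 14700 to 18000 CPM. KRT8 and KRT18 made up most of that sum, so it does not describe the other genes of the list. Single markers were not all alike: 5 of the 10 rose, 2 fell and 3 did not pass by edgeR. KRT20, CDH17 and CDX2 rose by 3.17 (SE 0.20), 1.32 (SE 0.07) and 1.09 (SE 0.08) on the log2 scale. KRT18 and CDH1 rose by less, and KRT19 and VIL1 fell by 0.51 (SE 0.11) and 0.20 (SE 0.07). Of 14640 tested genes 55.0% differed between the groups, 27.7% higher and 27.3% lower, with a median log2 fold change of 0.01, so a call on its own is common in this comparison.

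Of the 10 members, 7 rose, 0 fell and 3 did not pass (threshold 0.05 on the p adjusted over all tested genes, from the quasi-likelihood test of edgeR). The share that rose was 70.0%, beside 27.7% of all tested genes. The median log2 fold change of the members was 0.60, beside 0.01 over all tested genes. The rises fell into a large tier, with S100P, S100A6 and S100A4 more than 2-fold higher, and a small tier of S100A14, S100A13, S100A11 and S100A16. At least a 2-fold rise was called in 3 of 10 members and in 8.80% of all tested genes. The groups did not overlap for the same 7 genes, while 62.7% of all tested genes had groups that did not overlap.

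**Figure D1:**
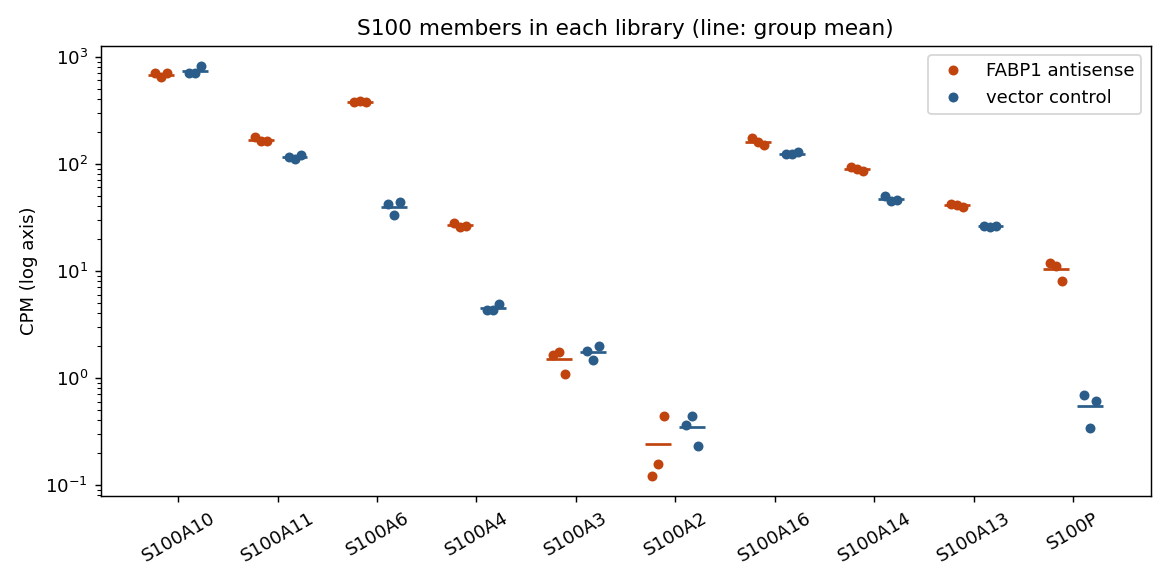
CPM of each of the 10 S100 members (log axis), with 1 point per library and a line at the group mean, FABP1 antisense left of vector control. S100A6, S100A4 and S100P are separated by the widest gaps, and the points of S100A10, S100A3 and S100A2 overlap between groups.

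S100A6, also called calcyclin, binds the calcyclin-binding protein and annexins and is abundant in dividing epithelial cells. It was 380, 387 and 374 CPM in the FABP1 antisense libraries against 42.4, 33.4 and 43.5 CPM in the vector control libraries. All 3 antisense libraries lay far above all 3 controls, and they differed among themselves by less than the controls did in proportion. S100A6 was 9.56-fold higher (log2 fold change 3.26, SE 0.11, 95% interval 3.01 to 3.50), with an adjusted p of 6.84e-08 by edgeR.

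S100A4, which binds the heavy chain of non-muscle myosin and is known as metastasin, lies close to S100A6 in the cluster. It was 27.8, 25.6 and 26.2 CPM in the FABP1 antisense libraries against 4.34, 4.29 and 4.89 CPM in the vector control libraries. The groups were well apart and tight. S100A4 was 5.88-fold higher (log2 fold change 2.56, SE 0.09, 95% interval 2.35 to 2.76), with an adjusted p of 9.76e-08 by edgeR.

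S100P, first found in placenta, binds ezrin and is a ligand of RAGE when released. It was 11.8, 11.1 and 8.09 CPM in the FABP1 antisense libraries against 0.695, 0.343 and 0.606 CPM in the vector control libraries. FABP1 antisense library 4 was the lowest of its group and still well above every control. The vector control level rested on 40, 14 and 26 counts. S100P was 18.4-fold higher (log2 fold change 4.20, SE 0.25, 95% interval 3.63 to 4.77), with an adjusted p of 2.17e-06 by edgeR.

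S100A14, S100A13 and S100A16 lie side by side at the other end of the cluster, and all of them rose by less. S100A14, an S100 protein of epithelia, was 93.0, 89.9 and 86.0 CPM in the FABP1 antisense libraries and 50.1, 45.2 and 45.8 CPM in the vector control libraries. Its log2 fold change was 0.93 (SE 0.07, adjusted p = 1.16e-05 by edgeR), and the groups did not overlap. S100A13, which takes part in the non-classical export of FGF1 and interleukin 1 alpha, was 42.1, 41.2 and 39.2 CPM in the FABP1 antisense libraries and 26.3, 25.8 and 26.0 CPM in the vector control libraries. The controls were nearly equal to each other, and the log2 fold change was 0.65 (SE 0.07, adjusted p = 8.19e-05 by edgeR). S100A16, a widely expressed member, was 174, 159 and 149 CPM in the FABP1 antisense libraries and 123, 123 and 128 CPM in the vector control libraries. Its log2 fold change of 0.37 (SE 0.07, adjusted p = 0.00289 by edgeR) was the smallest of the 7 rises.

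S100A11 and S100A10 form the pair that lies apart from the main cluster, and they differed in outcome. S100A11, a partner of annexin A1, was 179, 164 and 162 CPM in the FABP1 antisense libraries and 115, 111 and 120 CPM in the vector control libraries. The groups did not overlap, and its log2 fold change was 0.55 (SE 0.07, adjusted p = 0.000244 by edgeR). RefSeq lists 10 pseudogenes of S100A11, so reads could be split between copies and its value is uncertain. S100A10, known as p11, is the light chain of the annexin A2 complex and is unusual in the family because its EF-hands no longer need calcium. It was 699, 640 and 705 CPM in the FABP1 antisense libraries and 706, 697 and 811 CPM in the vector control libraries. The groups overlapped, and S100A10 did not pass (log2 fold change -0.12, SE 0.08, 95% interval -0.29 to 0.06, adjusted p = 0.230 by edgeR).

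S100A3 and S100A2 were the members at low levels, and neither passed. S100A3, a cysteine-rich protein of the hair cuticle, was 1.63, 1.74 and 1.08 CPM in the FABP1 antisense libraries and 1.77, 1.47 and 1.98 CPM in the vector control libraries. The groups overlapped (log2 fold change -0.24, SE 0.25, 95% interval -0.80 to 0.33, adjusted p = 0.448 by edgeR). S100A2, a marker of basal epithelial layers, rested on 5, 7 and 25 counts in the FABP1 antisense libraries and 21, 18 and 10 counts in the vector control libraries. FABP1 antisense library 4 was the highest of all 6 and the other libraries of that group the lowest, so no direction could be read (log2 fold change -0.47, SE 0.54, 95% interval -1.69 to 0.75, adjusted p = 0.492 by edgeR). The interval of S100A2 was wide enough to hold more than a 2-fold fall.

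Of the 9 members on chromosome 1, 6 rose, in a stretch where most other genes of moderate or high level were lower. The 25 tested genes on either side of the members, from SETDB1 to CKS1B with S100 genes left out and a mean log2 CPM of at least 1, were the same 50 genes for all 9 members. Of these 50 neighbours, 37 fell, 1 rose and 12 did not pass, with a median log2 fold change of -0.38 and a range of -1.60 to 0.43. The single neighbour that rose was THEM4, an acyl-CoA thioesterase gene next to S100A10, at 0.38 (SE 0.08, adjusted p = 0.00258 by edgeR). None of the 50 neighbours had a fold change above that of S100A4, S100A6, S100A11, S100A13 or S100A14, and 2 lay above S100A16. For S100A10, S100A3 and S100A2 the neighbours above them numbered 10, 15 and 32. The order of genes was read from RefSeq in a later build than the counts use, and no distances were taken. Some genes of the stretch below that level rose as well, among them TCHH.

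**Figure D2:**
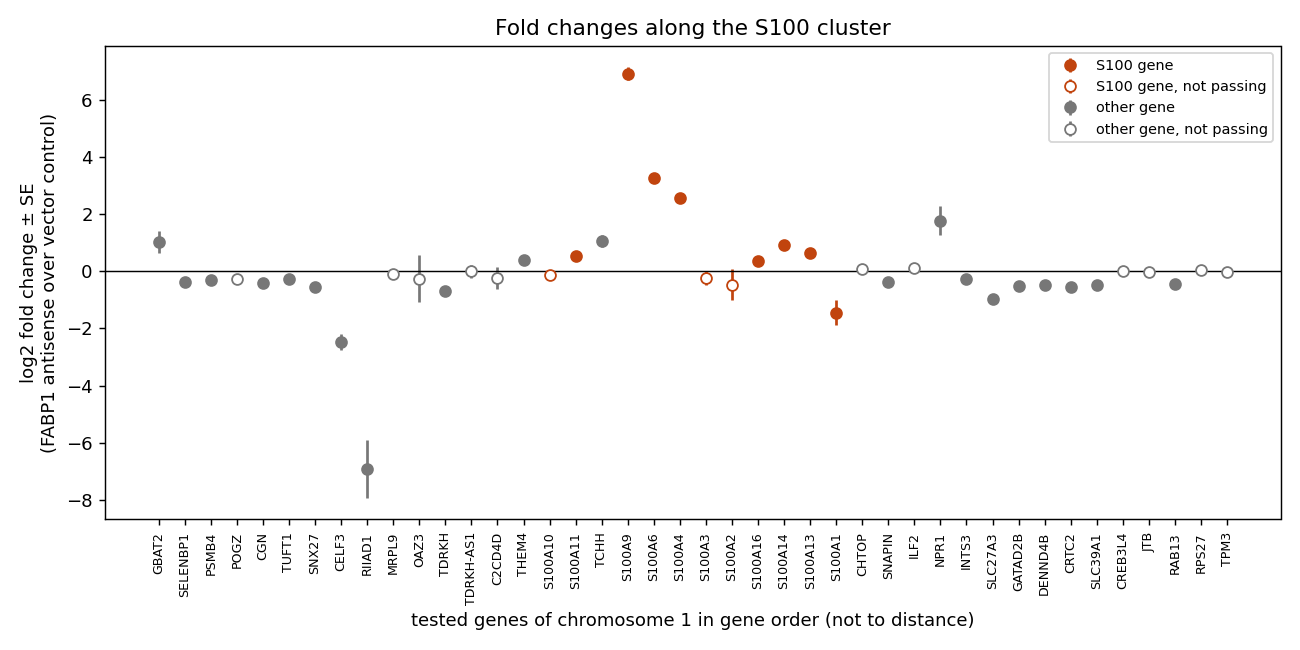
Log2 fold change with its SE (FABP1 antisense over vector control) for tested genes of chromosome 1 in gene order, S100 genes in red and others in grey, open points not passing at an adjusted p of 0.05. Genes of any level are shown. Most grey points lie at or below 0, while S100A9, S100A6 and S100A4 stand highest.

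The difference from the neighbours was tested by subtracting, in each library, the median log2 CPM of the 50 neighbours from the log2 CPM of a gene, for all 13161 genes with a full window, and comparing the groups with limma and Benjamini-Hochberg adjustment. Relative to their neighbours 8 of 10 members were higher, 0 were lower and 2 did not pass, beside 25.7% of all genes higher and 23.5% lower. The 9 members on chromosome 1 shared the same neighbours, whose median level differed by -0.40 between the groups. Each of their differences includes that shift, so their calls are not independent of each other. S100A6 stood 3.01, 3.04 and 3.01 above its neighbours on this log2 scale in the FABP1 antisense libraries, and at -0.48, -0.86 and -0.59 in the vector control libraries. The difference of S100A6 was 3.66 (SE 0.10, adjusted p = 3.10e-08 by limma). S100A4 differed by 2.94 (SE 0.09), S100A14 by 1.33 (SE 0.08), S100A13 by 1.04 (SE 0.07), S100A11 by 0.94 (SE 0.07) and S100A16 by 0.76 (SE 0.07).

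S100A10 was the member whose reading changed with this comparison. It lay 3.89, 3.77 and 3.93 above its neighbours in the FABP1 antisense libraries and 3.58, 3.52 and 3.63 above them in the vector control libraries, without overlap. That difference of 0.28 (SE 0.07) passed (adjusted p = 0.0126 by limma), although its own level did not pass. It includes the shared difference of -0.40 in the median of the neighbours, while the log2 fold change of S100A10 itself was -0.12. S100A3 (0.16, SE 0.22, adjusted p = 0.588 by limma) and S100A2 (-0.19, SE 0.50, adjusted p = 0.771 by limma) could not be told from their neighbours. S100P on chromosome 4 differed from its own 50 neighbours by 4.63 (SE 0.26, adjusted p = 1.72e-06 by limma). That value includes a difference of -0.46 between the groups in the median level of the neighbours, which is not the median of their fold changes. With each neighbour centred on its own mean, an alternative chosen after seeing the data, that median differed by -0.03. S100P then differed by 4.20 (SE 0.26). Those neighbours were mixed, with 12 higher and 14 lower and a median log2 fold change of -0.05, and none of them had a larger fold change than S100P. The genes next to S100P, LOC93622 (0.14, SE 0.09) and MRFAP1L1 (0.19, SE 0.09), did not pass.

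**Figure D3:**
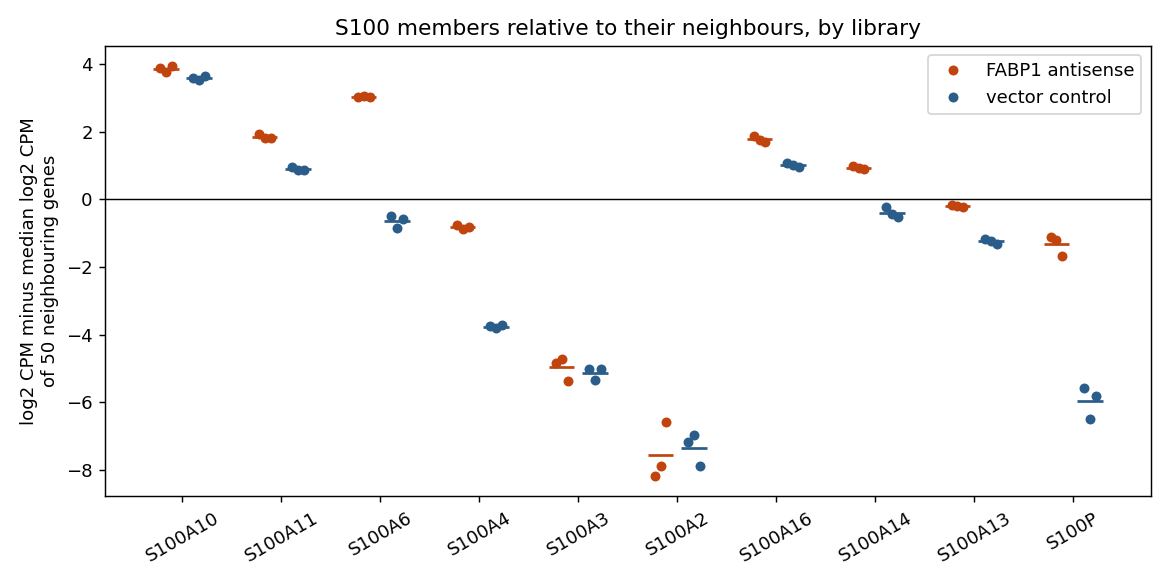
Log2 CPM of each S100 member minus the median log2 CPM of its 50 neighbouring genes, with 1 point per library and a line at the group mean, FABP1 antisense left of vector control. The points of S100A3 and S100A2 overlap between groups, and those of the other members, S100A10 among them, do not. The share of all genes without overlap on this scale was not computed.

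The members' levels can be set against each other only per transcript length, here CPM per kilobase of the GENCODE transcripts that match each gene's RefSeq accessions. S100A6 was 572 ± 9.94 CPM per kb in the FABP1 antisense libraries, against 59.8 ± 8.29 CPM per kb in the vector control libraries (SD, n = 3 each). S100A10 was 567 ± 29.9 CPM per kb in the FABP1 antisense libraries and 614 ± 52.7 CPM per kb in the vector control libraries (SD, n = 3 each). In the FABP1 antisense libraries these 2 genes did not differ beyond their spread, followed by S100A11 (283 ± 15.4), S100A16 (150 ± 11.4), S100A14 (84.7 ± 3.33), S100A13 (70.2 ± 2.50), S100A4 (45.5 ± 1.95), S100P (8.07 ± 1.55), S100A3 (1.74 ± 0.411) and S100A2 (0.241 ± 0.178 CPM per kb; SD, n = 3). In the vector control libraries S100A10 was followed by S100A11 (193.9 ± 8.09), S100A16 (116 ± 2.36), S100A6, S100A13 (44.8 ± 0.399), S100A14 (44.5 ± 2.55), S100A4 (7.73 ± 0.574), S100A3 (2.03 ± 0.300), S100P (0.428 ± 0.143) and S100A2 (0.347 ± 0.105 CPM per kb; SD, n = 3). There S100A13 and S100A14 did not differ beyond their spread, nor did S100P and S100A2.

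The make-up of the family therefore differed between the groups. S100A6 made up 31.2, 33.3 and 31.9% of the members' summed CPM per kb in the FABP1 antisense libraries, against 6.001, 4.89 and 5.63% in the vector control libraries. S100A10 made up 31.7, 30.4 and 33.3% in the FABP1 antisense libraries, against 55.3, 56.4 and 58.1% in the vector control libraries. The summed level of all 10 members was 1782 ± 46.6 CPM per kb in the FABP1 antisense libraries and 1084 ± 69.0 CPM per kb in the vector control libraries (SD, n = 3 each). The lengths matter here: with the shortest coding transcript of each gene, a choice made after seeing the data, S100A10 stood above S100A6 in the FABP1 antisense libraries, at 1105 ± 58.3 against 794 ± 13.8 CPM per kb (SD, n = 3). Under that choice S100A6 made up 30.8% of the total in the FABP1 antisense libraries and 4.83% in the vector control libraries, and S100A10 made up 42.8% in the FABP1 antisense libraries and 69.8% in the vector control libraries.

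**Figure D4:**
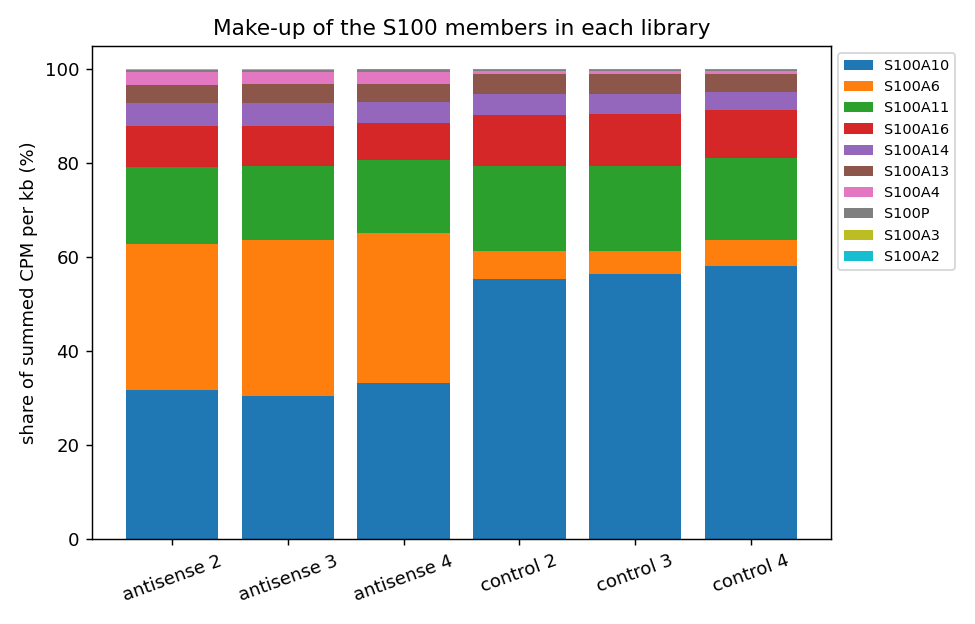
Share of each member in the summed CPM per kb of the 10 S100 members, in percent, for the 3 FABP1 antisense libraries (left) and the 3 vector control libraries (right). The S100A6 block takes 31.2 to 33.3% in the FABP1 antisense libraries and 4.89 to 6.001% in the vector control libraries.

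Outside the 10 members the table held 11 further S100 genes, of which 2 were tested. S100A9, which pairs with S100A8 to form calprotectin in myeloid cells, lies beside S100A6 among the tested genes of the cluster. It had 792, 1024 and 1087 counts in the FABP1 antisense libraries against 14, 3 and 7 counts in the vector control libraries, or 20.5 ± 2.09 CPM against 0.160 ± 0.0849 CPM (SD, n = 3 each). Its log2 fold change of 6.90 (SE 0.23, adjusted p = 6.84e-08 by edgeR) was above that of every member. S100A8 had 0 counts in all 6 libraries. Counting error alone (3 counts) allows up to 0.0533 to 0.0729 CPM per FABP1 antisense library and 0.0521 to 0.0735 CPM per vector control library. In RefSeq S100A8 overlaps S100A7A, which had 0 counts as well, and the pseudogene S100A15A. How reads in such overlaps were assigned is not stated, so the value of S100A8 is uncertain. S100A1, best known in heart muscle, fell (11, 37 and 30 counts in the FABP1 antisense libraries against 64, 48 and 95 in the vector control libraries; log2 fold change -1.45, SE 0.43, adjusted p = 0.0192 by edgeR). S100A1 overlaps S100A13 on the opposite strand. The sources used here do not state whether reads were counted by strand, so the reads of this pair cannot be assigned with certainty, and both values are uncertain. S100A13 was higher and S100A1 lower.

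Of the other 9 S100 genes, S100A5, S100A7, S100A7A, S100A7L2, S100A12 and S100B had 0 counts in all libraries, as S100A8 did. S100G, the intestinal calbindin of calcium absorption, had 11, 4 and 10 counts in the FABP1 antisense libraries and 10, 5 and 11 in the vector control libraries, and S100Z had 13 counts in the FABP1 antisense group and 4 in the vector control group. Both were too low to test. S100A4 overlaps the end of S100A5 in RefSeq, and S100A5 took no reads. RefSeq also places a long noncoding RNA across S100A3 and another across S100A6. In the table the first, LOC101928034, had 0 counts and the second is not analysed here. The epidermal differentiation genes that flank the S100 cluster were nearly all silent: 1 of 42 was tested, TCHH, the hair follicle protein trichohyalin, which was 2.04, 1.97 and 1.99 CPM in the FABP1 antisense libraries and 1.04, 0.857 and 0.978 CPM in the vector control libraries (log2 fold change 1.05, SE 0.20, adjusted p = 0.00225 by edgeR). Of these 42 genes, 35 had 0 counts in the FABP1 antisense group and 40 in the vector control group.

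Some S100 genes are used as markers of other cell types, S100A4 of fibroblasts, S100A9 of leukocytes and S100A2 of basal epithelium, and genes of the first 2 marker lists moved in both directions. Of 13 fibroblast and stromal markers 7 were tested, 4 rose, 2 fell and 1 did not pass, beside 27.7% higher and 27.3% lower over all tested genes. LUM, the matrix proteoglycan lumican, was 18.1 ± 1.87 CPM in the FABP1 antisense libraries and 0.133 ± 0.0873 CPM in the vector control libraries (SD, n = 3 each), and it rose. DES, VIM and COL3A1 rose by 2.65 (SE 0.64), 0.98 (SE 0.35) and 0.69 (SE 0.16) on the log2 scale. DES and VIM were low in both groups. DES was 0.615 ± 0.150 CPM in the FABP1 antisense libraries and 0.0889 ± 0.0869 CPM in the vector control libraries (SD, n = 3 each). VIM was 0.512 ± 0.122 CPM in the FABP1 antisense libraries and 0.258 ± 0.0331 CPM in the vector control libraries (SD, n = 3 each). PDGFRA, a growth factor receptor of mesenchymal cells, fell to 0.386 ± 0.285 CPM in the FABP1 antisense libraries, against 22.7 ± 3.49 CPM in the vector control libraries (SD, n = 3 each), and PDGFRB fell by 1.13 (SE 0.16). The summed level of the list was 32.8 to 36.9 CPM in the FABP1 antisense libraries and 39.8 to 42.6 CPM in the vector control libraries, a sum in which the rise of LUM and the fall of PDGFRA offset each other. COL1A2, DCN, THY1 and POSTN had 0 counts in every library.

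Of 10 leukocyte markers 5 were tested, 3 rose, 1 fell and 1 did not pass, beside the same shares over all tested genes. CSF1R, a receptor of the macrophage lineage, was 3.23 ± 0.475 CPM in the FABP1 antisense libraries and 0.264 ± 0.295 CPM in the vector control libraries (SD, n = 3 each; log2 fold change 3.60, SE 0.65, adjusted p = 0.00154 by edgeR). LYZ, the gene of lysozyme, rose by 1.04 (SE 0.08) and CD68, a lysosomal protein of macrophages, by 0.69 (SE 0.08), while CD14, a co-receptor for lipopolysaccharide, fell by 2.38 (SE 0.13). The summed level was 63.9 to 67.2 CPM in the FABP1 antisense libraries and 44.4 to 48.6 CPM in the vector control libraries. CD68 and LYZ made up most of that sum, so it does not describe the other leukocyte markers. PTPRC, the pan-leukocyte marker, had 0 counts in every library, as had TYROBP, LST1 and FCGR3A. Of 8 basal and squamous markers only SFN was tested, and it did not pass (log2 fold change -0.03, SE 0.10). The list's summed level was 58.1 to 71.3 CPM in the FABP1 antisense libraries and 60.6 to 73.9 CPM in the vector control libraries. Nearly all of that sum was SFN, so it does not describe the other genes of the list. TP63 had 10, 10 and 4 counts in the FABP1 antisense libraries and 3, 0 and 0 counts in the vector control libraries, and DSG3 had 7, 5 and 5 counts in the FABP1 antisense libraries and 0 in each vector control library. KRT5, KRT6A and KRT6B had 0 counts in every library. The part of other cell types in the rises of S100A4 and S100A9 was not tested.

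The genes of S100 binding partners and receptors did not move one way. Of 30 listed genes 24 were tested, 8 rose, 8 fell and 8 did not pass, with a median log2 fold change of 0.07. Over all tested genes 27.7% were higher and 27.3% lower, so the counts of this list lay near those shares. ANXA2, the annexin that S100A10 binds, was 1391, 1085 and 1037 CPM in the FABP1 antisense libraries against 1268, 1129 and 922 CPM in the vector control libraries and did not pass (log2 fold change 0.08, SE 0.14, adjusted p = 0.637 by edgeR). AHNAK, a very large scaffold that the ANXA2 and S100A10 complex anchors at the membrane, rose by 0.58 (SE 0.10) to 584 ± 20.9 CPM in the FABP1 antisense libraries, against 390 ± 55.3 CPM in the vector control libraries (SD, n = 3 each). ANXA1, which S100A11 binds, rose by 1.66 (SE 0.11), while ANXA6 fell by 1.56 (SE 0.11). PLAU, the urokinase that starts plasmin formation, rose by 2.66 (SE 0.08), with a mean of 33.2 CPM in the FABP1 antisense libraries and 5.25 CPM in the vector control libraries. PLG, the plasminogen that S100A10 can hold at the surface, had 0 counts in all libraries.

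Some partners of S100A6, S100A4 and S100P were among the genes that fell, while other genes of the list rose or did not pass. PPFIBP1, for example, rose by 0.39 (SE 0.10, adjusted p = 0.00822 by edgeR), and ANXA11 did not pass (0.28, SE 0.14). CACYBP, the calcyclin-binding protein that takes its name from S100A6, fell by 0.25 (SE 0.07, adjusted p = 0.00960 by edgeR) to 177 ± 6.81 CPM in the FABP1 antisense libraries, against 211 ± 6.73 CPM in the vector control libraries (SD, n = 3 each). MYH9, the myosin heavy chain that S100A4 binds, fell by 0.45 (SE 0.08). EZR, the membrane linker ezrin that S100P binds, fell by 0.38 (SE 0.07), and S100PBP, a nuclear S100P-binding protein, by 0.62 (SE 0.11). Each of these 4 had groups that did not overlap, as had 62.7% of all tested genes, while AGER, the gene of the receptor RAGE, did not pass (-0.16, SE 0.16), nor did IQGAP1, another S100P partner (0.12, SE 0.08). Over the list 8 of 24 genes fell, beside 27.3% of all tested genes. Among the further genes of the list, DLC1, a GTPase-activating protein, rose by 2.82 (SE 0.17) and LGALS3, the lectin galectin-3, by 1.45 (SE 0.06), and the transglutaminase TGM2 fell by 0.65 (SE 0.12). The largest fall and the largest rise of the list were in genes below a mean log2 CPM of 1. KCNK3 fell by 6.96 (SE 0.54), from a mean of 3.79 CPM in the vector control libraries, and PLAT rose by 3.04 (SE 0.64), to 1.25 CPM in the FABP1 antisense libraries.

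**Figure D5:**
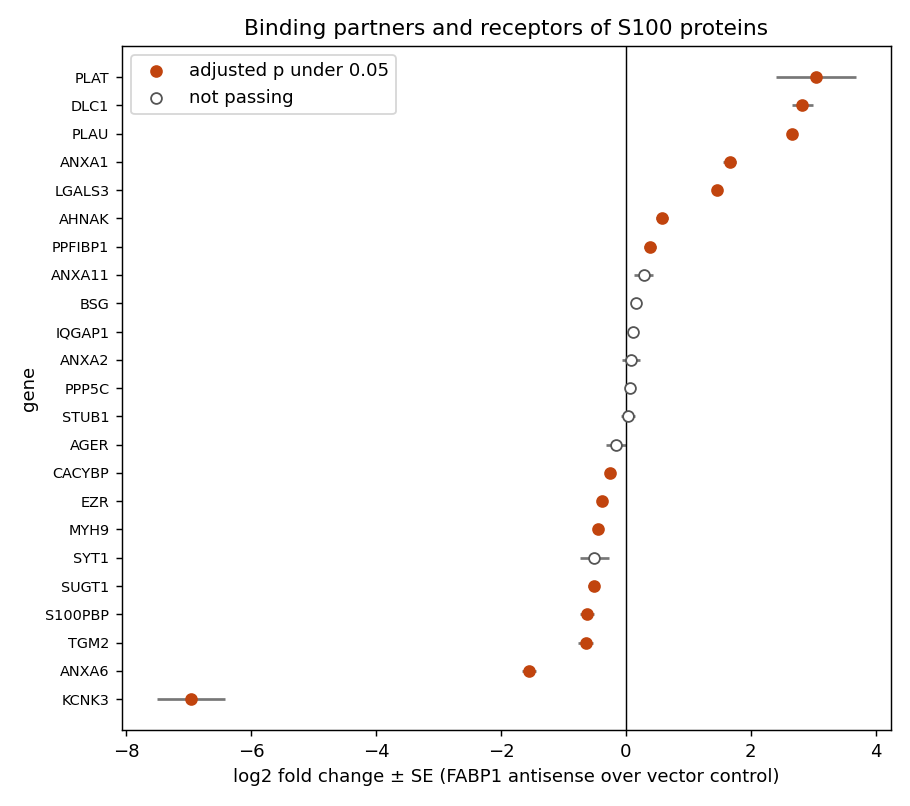
Log2 fold change with its SE (FABP1 antisense over vector control) of 23 of the 24 tested genes of S100 binding partners and receptors, filled points passing at an adjusted p of 0.05. The 7 rises and 8 falls drawn lie around 8 genes that did not pass, ANXA2 and AGER among them.

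Most other EF-hand genes on the list were higher. Of 49 listed genes 43 were tested, 25 rose, 6 fell and 12 did not pass, with a median log2 fold change of 0.35, beside 27.7% higher and 27.3% lower over all tested genes. The largest changes at a mean log2 CPM of at least 1 were in sensors known from nerve cells, NCALD (neurocalcin delta), with 5.73 ± 0.304 CPM in the FABP1 antisense libraries against 0.0408 ± 0.0707 CPM in the vector control libraries, and VSNL1 (visinin-like protein), with 12.4 ± 0.421 CPM in the FABP1 antisense libraries against 0.264 ± 0.111 CPM in the vector control libraries (SD, n = 3 each). SCGN, the calcium buffer secretagogin of endocrine cells, rose by 1.92 (SE 0.10), CALML4, a calmodulin-like protein of the brush border, by 1.38 (SE 0.08) and the microvillus bundling protein gene PLS1 by 0.70 (SE 0.11). Among the myosin light chains MYL12A rose by 0.74 (SE 0.07) and MYL9 fell by 1.22 (SE 0.08).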

How the data were processed

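RNA of 6 Caco-2 libraries, 3 per group, was made into TruSeq Stranded mRNA libraries, per the labels' protocols. Per the submitters' processing notes the build was GRCh37 and the tools were StringTie 1.3.4d, HISAT2 2.1.0, Trimmomatic 0.38, Bowtie2 2.3.4.1 and bcl2fastq, without roles. The deposited table holds read counts per gene that the authors had not normalized. Its 12 other per-library columns were not used. Each column was placed in a group from its header. The header's number (2, 3 or 4) names a library here and differs from the labels' numbering.

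Counts were filtered with filterByExpr (14640 genes kept), scaled by TMM and tested with the quasi-likelihood test of edgeR 4.0.16 in R 4.3.3, with Benjamini-Hochberg adjustment over all tested genes and a threshold of 0.05. The SE is the absolute log2 fold change over the square root of F. Levels relative to neighbours used log2 CPM (prior count 2) and limma 3.58.1 with a variance trend, with RefSeq gene order (GRCh38.p14), which placed 99.8% of tested genes. Promoters came from RefSeq (GRCh38.p14) and transcript lengths from GENCODE 29 for all 10 members. The scripts were tested on simulated data. The members and lists were chosen with earlier results of these data known. All members were named, with the other S100 genes, FABP1, the nearest tested neighbours, 6 set partners and, from the partner and EF-hand lists, the 8 largest changes at a mean log2 CPM of at least 1 without overlap. Other genes named fall outside this rule and were picked with their values known. A few genes that the rule names are not reported here. Within groups, no libraries were alike to within sampling noise (chi-square over degrees of freedom 14 to 40.1). Python 3.11.15 was used for the rest. Alternatives covered scaling, filters, DESeq2 1.42.0, a block on the header numbers, window sizes and leaving out each library.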

Additional observations from a re-analysis of the deposited data

How the results depend on the processing

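The calls of the 10 members were the same under the alternatives run: DESeq2 size factors, library size only, both other filters on low counts, the DESeq2 Wald test, the replicate block and leaving out each library. In each of these 7 members were called higher and 0 lower. The count of genes called over the whole table was 6661 to 8173 under the settings other than leaving out a library, beside 8054, and 6983 to 8059 with a library left out. With a library left out, the log2 fold changes ranged from 3.14 to 3.32 for S100A6, 2.52 to 2.62 for S100A4, 3.97 to 4.42 for S100P and 0.31 to 0.42 for S100A16. Those of S100A2 ranged from -1.30 to -0.17 and those of S100A3 from -0.37 to -0.05, without passing in any fit. Relative to the neighbours, the calls of the 10 members were kept with 10 or 50 neighbours on either side and under the other alternatives run. The adjusted p of S100A10 was nearest the threshold, at most 0.0481 by limma with a library left out. S100A2, which did not pass, ranged from -0.67 to 0.12 and changed sign in the fit without FABP1 antisense library 2. Centring each neighbour on its own mean, an alternative chosen after seeing the data, gave 4.20 for S100P and 0.24 for S100A10. Libraries with the same header number did not deviate together (correlations 0.03, -0.08 and -0.09), so the numbers were not taken as pairing. The replicate block gave 6661 calls over the whole table, 6625 of them shared with the fit without it, and not every library matched its own number best. Shares per length depend on the transcript chosen: with no length correction S100A6 made up 24.4% of the members' total in the FABP1 antisense libraries and 3.62% in the vector control libraries. Depth limits S100A2, S100A3 and S100A1, which rest on few counts.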
